A study of Mus musculus with 12 samples.

Results

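The genes described here encode the enzymes of fatty acid activation, beta-oxidation and acyl-CoA hydrolysis and the peroxins, measured in mouse liver. They were chosen by symbol alone, as the genes whose symbol belongs to the acyl-CoA dehydrogenase, oxidase, synthetase, thioesterase and thiolase families, the hydratase, isomerase and reductase genes of beta-oxidation, the carnitine palmitoyltransferases other than Cpt1a, and the Pex family. The rule found 67 of the 19084 genes on the array, each represented by its brightest probe: 9 synthetases, 3 carnitine palmitoyltransferases, 19 genes of mitochondrial beta-oxidation, 9 of peroxisomal beta-oxidation, 2 acetoacetyl-CoA thiolases, 11 thioesterases and 14 peroxins. These roles were assigned by symbol, and the mitochondrial role took every member left over. A role can therefore hold genes of another function. Liver RNA of male C57BL/6 mice was hybridised to 12 single-colour arrays, 3 in each of 4 groups, in a study of PTFC, a preparation of pure total flavonoids from Citrus, in fatty liver. The ND group ate a control diet (12.3% fat, 21.5% protein, 66.2% carbohydrate) over 24 weeks, and its mice were 30 to 33 weeks old. HFD16 and HFD24 mice ate a high-fat diet (36.1% fat, 21.6% protein, 42.3% carbohydrate) enriched with 2% cholesterol, bile salt, lard and yolk powder, for 16 weeks (age 23 to 25 weeks) or 24 weeks (age 31 to 33 weeks). PTFC mice, of the same age as HFD24, ate that diet throughout and, after the first 6 weeks, received PTFC by gavage (50 mg per kg) daily for the last 18 weeks, while the other groups were gavaged with saline. Every group had 6 mice and fasted for 12 h before collection. The labels do not say whether the 3 arrays of a group came from separate or pooled animals, so the p-values cover the spread among these arrays alone, and that spread may be technical.

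Fatty acids enter oxidation once an acyl-CoA synthetase has joined them to coenzyme A. Long chains cross the inner mitochondrial membrane as carnitine esters and are shortened there by successive rounds of dehydrogenation, hydration, dehydrogenation and thiolysis. Very long and branched chains are first shortened in peroxisomes by a separate set of oxidases, a bifunctional enzyme and thiolases. Thioesterases split acyl-CoA back into fatty acid and coenzyme A, and peroxins import the peroxisomal enzymes and multiply the organelle. In fasted liver the nuclear receptor PPARα, which fatty acids activate, is known to raise many of these genes.

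Of the 67 genes, 18 were lower and 4 higher in HFD16 than in ND (limma, Benjamini-Hochberg adjusted p under 0.05 over all 19084 genes), or 26.9% and 5.97% of them, where 8.11% of all genes were lower and 10.0% higher. The lower genes were led by the thioesterases Acot3, Acot2 and Acot1, the peroxisomal bifunctional enzyme Ehhadh and the muscle-type carnitine palmitoyltransferase Cpt1b. In HFD24 against ND, 10 were lower and 2 higher (14.9% and 2.99%), where 8.28% of all genes were lower and 9.97% higher. The 10 were Acot3, Acot1, Acot2, Acot4, Hadha, Cpt1b, Acad9, Pex13, Pex11a and Acadvl. PTFC against HFD24 gave 9 higher genes and none lower (13.4% and 0%), where 2.96% of all genes were higher and 3.04% lower: Acot2, Acot1, Ehhadh, Hadha, Acot4, Acot12, Acad9, Pex13 and Pex11a. No member passed the limma test in PTFC against ND (2.33% of all genes called, 1.04% higher and 1.29% lower), and the other tool settings tried gave at most 1. In that comparison 11 of the 67 members had an unadjusted limma p under 0.05, as did 3267 of all 19084 genes. Between HFD24 and HFD16 1 member, Pex11a, passed, where 0.0367% of all genes were called, 0.0157% higher and 0.0210% lower.

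**Figure D1:**
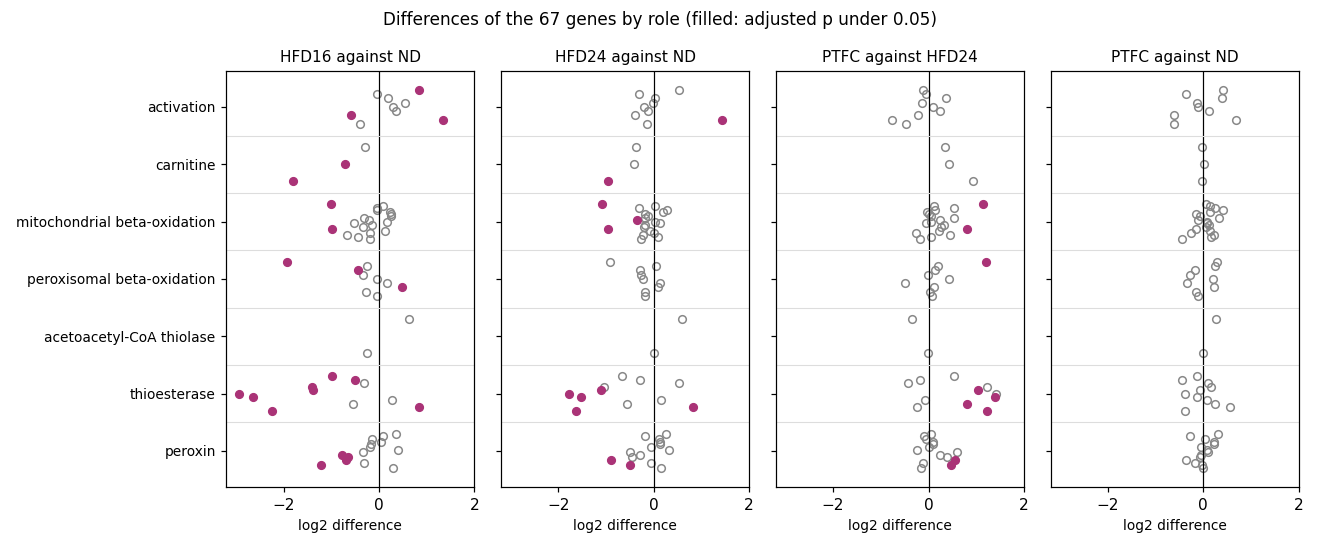
Log2 difference of each of the 67 genes (horizontal axis, 1 point per gene) in 4 comparisons, with genes in rows by role. Filled points passed the limma test at an adjusted p under 0.05; the thioesterase row holds 7 of the 18 filled points left of 0 in HFD16 against ND and 4 of the 9 right of 0 in PTFC against HFD24.

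Across all 67, the median log2 difference was -0.21 in HFD16 against ND (all genes tested -0.03), -0.18 in HFD24 against ND (all genes -0.06), 0.10 in PTFC against HFD24 (all genes 0.01) and 0.01 in PTFC against ND (all genes -0.01). An F test over the 4 groups called 22 of the 67, or 32.8%, where 21.4% of all genes were called. Without ND 1 the F test called 13 members and without HFD16 3 it called 14. Over all genes the 4088 called became 2222 to 5185 in the 12 fits that left out an array. By role the 22 were 9 of 11 thioesterases, 4 of 14 peroxins, 3 of 9 synthetases, 3 of 19 mitochondrial genes, 2 of 3 carnitine palmitoyltransferases, 1 of 9 peroxisomal beta-oxidation genes and neither acetoacetyl-CoA thiolase. Arrays of both groups did not overlap for 26 lower and 8 higher members in HFD16 against ND (18.9% and 16.9% of all genes). They did not overlap for 20 lower and 6 higher members in HFD24 against ND (18.1% and 15.5%), and for 19 higher and 4 lower in PTFC against HFD24 (15.9% and 15.2%). Between HFD24 and HFD16 this held for 4 higher and 7 lower (6.25% and 10.1%), and in PTFC against ND for 7 higher and 6 lower (10.0% and 12.1%).

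Median intensity per array ranged from 249 to 408, and arrays of a group correlated at a median r of 0.988 across genes, which are not independent replicates, against 0.981 between groups. All 12 hepatocyte markers measured lay at or above percentile 92.2 of signal, and no marker of any list was at 0 on all 3 arrays of a group. Macrophage markers moved with the diet: all 14 measured were higher in HFD24 than in ND and 9 of 14 in HFD16. Their summed intensities were 17321 to 38824 in ND, 37489 to 158708 in HFD16, 112193 to 175897 in HFD24 and 67424 to 89849 in PTFC. In PTFC against HFD24 1 of 14 macrophage markers, Cx3cr1, and 4 of 12 stellate cell and matrix markers were lower, and none of either list was higher. In PTFC against ND 5 macrophage markers were higher and none lower, and 4 stellate cell and matrix markers were higher and 1 lower. In HFD24 against ND 10 of 12 stellate cell and matrix markers were higher and 1, Col1a1, was lower (log2 -0.91). Higher there were also 6 of 8 endothelial, 3 of 6 T and NK cell and 3 of 4 neutrophil markers, while 1 of 3 B cell markers was higher and 1 lower, and 2 of 5 cholangiocyte and 1 of 2 pancreas markers were lower. None of the adipocyte, skeletal muscle and heart muscle markers passed. Of the hepatocyte markers, Tat was lower in HFD24 and Tat and Pck1 in HFD16. In whole liver, fewer hepatocytes and less RNA per hepatocyte cannot be told apart, and the part of these other cells in the results was not tested. The deposited values of an array are multiples of a step, as a scaling factor leaves, and this step was 1.23 to 1.46 on the ND arrays and 0.675 to 1.12 on the other 9.

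Acot1, Acot2 and Acot3, thioesterases of the type I family, showed the widest differences from ND in both diet groups. Acot1, the cytosolic long-chain enzyme, read 84594, 94286 and 111947 in deposited intensity on the 3 ND arrays, 24336, 14195 and 22817 in HFD16, 28622, 42869 and 21939.7 in HFD24, and 69955, 91210.5 and 72987 in PTFC. All 6 arrays of the diet alone lay below all 6 ND and PTFC arrays, and the second HFD24 array was the highest of the 6. On the log2(intensity + 1) scale used for every difference below, Acot1 fell by 2.24 ± 0.26 (SE from limma, n = 3 arrays per group here and below) in HFD16 against ND, to 21.2% of the ND level (limma adjusted p = 0.000565). It fell by 1.62 ± 0.26 in HFD24 against ND, to 32.5% (limma adjusted p = 0.00164). In PTFC it was 2.35-fold higher than in HFD24 (log2 1.23 ± 0.26, limma adjusted p = 0.0238). Arrays are named below by group and replicate number, and each fit was repeated without each array in turn. Both falls of Acot1 passed in all 12 such fits, whereas the PTFC call was lost without HFD24 1, HFD24 3 or any PTFC array (log2 1.01 to 1.51, highest limma adjusted p 0.103). PTFC and ND arrays overlapped, with a log2 difference of -0.39 (95% interval -0.95 to 0.17).

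Acot2, the mitochondrial matrix enzyme, read 14623, 15447 and 28080.4 in ND, 3123, 2486 and 3242 in HFD16, 5253, 11095 and 4366 in HFD24, and 14619, 19046 and 18684 in PTFC. Its order of groups was that of Acot1, again with the second HFD24 array above the other diet-alone arrays. It fell by 2.64 ± 0.33 in HFD16 against ND (6.24-fold, limma adjusted p = 0.00088) and by 1.52 ± 0.33 in HFD24 against ND (2.87-fold, limma adjusted p = 0.00732). It was 2.61-fold higher in PTFC than in HFD24 (limma adjusted p = 0.0324). The HFD24 arrays all lay above the HFD16 arrays, but this difference of 1.12 ± 0.33 did not pass (limma adjusted p = 0.296). Leaving out arrays one at a time kept both falls and lost the PTFC call without the same 5 arrays as in Acot1 (log2 1.08 to 1.80, highest limma adjusted p 0.152).

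Acot3, Acot4 and Acot5 are peroxisomal thioesterases. Acot3 read 15240.0, 15178 and 21117 in ND, 2399.6, 1628 and 2635 in HFD16, 5006, 11188 and 2052 in HFD24, and 16450.5, 10421 and 14096 in PTFC, so the HFD24 arrays spread widely and the highest of them overlapped PTFC. It had the largest fall of the 67 genes in both diet groups, 7.70-fold in HFD16 (log2 -2.95 ± 0.47, limma adjusted p = 0.00253) and 3.44-fold in HFD24 (log2 -1.78 ± 0.47, limma adjusted p = 0.0199). In PTFC against HFD24 its difference of 1.41 ± 0.47 did not pass (limma adjusted p = 0.0892), and without HFD24 2 it was 2.02 (limma adjusted p = 0.0446, range over the alternatives 0.0332 to 0.26). The HFD24 fall of Acot3 was lost without ND 1 or HFD24 1 (highest limma adjusted p 0.0533). Acot4, which acts on dicarboxylic acyl-CoA such as succinyl-CoA, read 4775, 5548 and 5054 in ND, 1978, 1509 and 2398 in HFD16, 2466, 3309 and 1576 in HFD24, and 4600.1, 4701 and 5913 in PTFC. The diet-alone arrays of Acot4 all lay below the others. Its differences were -1.38 ± 0.27 in HFD16 against ND, -1.10 ± 0.27 in HFD24 against ND and 1.04 ± 0.27 in PTFC against HFD24 (limma adjusted p = 0.00608, 0.0145 and 0.0421). The HFD24 fall was lost without ND 2 (highest limma adjusted p 0.0552) and the PTFC call without ND 1, ND 2, HFD16 3, HFD24 1, HFD24 3 or any PTFC array (log2 0.71 to 1.29, highest limma adjusted p 0.194). Acot5 was dim, at 284, 287 and 640.2 in ND, 124.8, 92.5 and 116 in HFD16, 88.4, 220.3 and 168 in HFD24, and 564, 367 and 473 in PTFC. It passed in HFD16 against ND (log2 -1.41 ± 0.35, limma adjusted p = 0.0168, but 0.0604 without HFD16 2). It narrowly missed in HFD24 against ND (-1.05, limma adjusted p = 0.0544) and in PTFC against HFD24 (1.22, limma adjusted p = 0.0579).

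**Figure D2:**
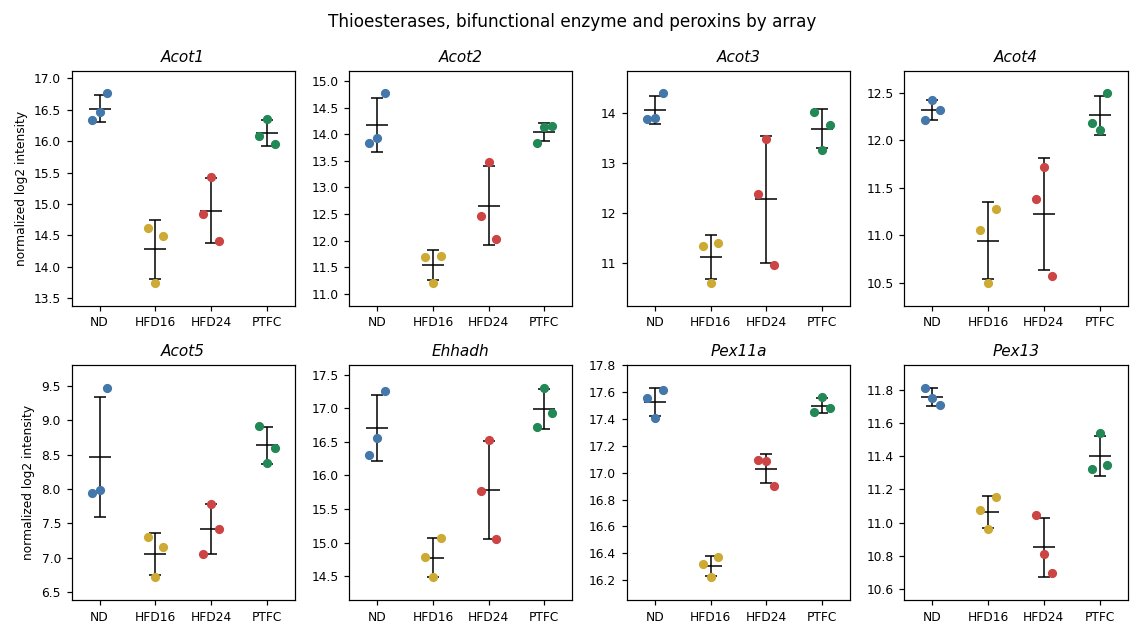
Normalized log2 intensity (vertical axis, its own range in each panel) of 5 thioesterases, Ehhadh, Pex11a and Pex13 on each array, by group. Points are arrays and bars are the mean ± SD of 3 arrays; in Acot1, Acot2, Acot4, Pex11a and Pex13 all HFD16 and HFD24 arrays lie below all ND and PTFC arrays.

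These 5 genes are neighbours. In the RefSeq gene table Acot2, Acot1, Acot4, Acot3, Acot5 and Acot6 are consecutive protein-coding genes of chromosome 12, a cluster of near copies. The probe sequences were not used here, so how far a probe for one copy also binds the RNA of another was not tested, and these profiles are not independent measurements. Acot6 is the last gene of the cluster. On the normalized log2 scale its HFD24 arrays lay above the ND arrays (0.53 ± 0.18, limma adjusted p = 0.0586) and its HFD16 difference from ND was -0.31. It passed none of the 5 comparisons but differed by the F test (limma adjusted p = 0.027), and it lay in the dimmest 25% of genes. Acot1 to Acot5 and Ehhadh carry most of the largest differences, and Pex11a has the smallest F-test p of the members. The 120 bases before and the first 30 bases of each are therefore shown from RefSeq (GRCm38.p6), 5′ to 3′ on the gene's strand. Capitals mark the CCAAT box (CCAAT, or ATTGG on the other strand) and the half-site of nuclear receptors such as PPARα (AGGTCA, or TGACCT on the other strand), which do not overlap each other. The stretches are Acot2 (NCBI gene 171210) at chr12:83987741-83987890, Acot1 (26897) at chr12:84009382-84009531, Acot4 (171282) at chr12:84038259-84038408, Acot3 (171281) at chr12:84052024-84052173 and Acot5 (217698) at chr12:84069204-84069353, all on the plus strand, and Ehhadh (74147) at chr16:21787805-21787954 and Pex11a (18631) at chr7:79743102-79743251, both on the minus strand.
Acot2: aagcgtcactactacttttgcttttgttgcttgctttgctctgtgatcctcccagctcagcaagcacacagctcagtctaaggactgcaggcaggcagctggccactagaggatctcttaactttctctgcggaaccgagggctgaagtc
Acot1: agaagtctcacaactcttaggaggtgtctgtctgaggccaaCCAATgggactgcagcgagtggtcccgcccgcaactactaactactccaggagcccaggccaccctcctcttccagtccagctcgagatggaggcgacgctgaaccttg
Acot4: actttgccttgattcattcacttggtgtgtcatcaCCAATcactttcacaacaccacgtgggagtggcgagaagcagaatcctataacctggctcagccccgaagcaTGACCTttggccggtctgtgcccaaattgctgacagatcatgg
Acot3: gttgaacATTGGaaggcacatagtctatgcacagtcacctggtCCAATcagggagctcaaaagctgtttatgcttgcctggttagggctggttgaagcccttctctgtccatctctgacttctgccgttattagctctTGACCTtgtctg
Acot5: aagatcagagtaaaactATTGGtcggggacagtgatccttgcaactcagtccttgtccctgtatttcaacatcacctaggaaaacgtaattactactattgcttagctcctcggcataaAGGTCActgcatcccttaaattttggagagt
Ehhadh: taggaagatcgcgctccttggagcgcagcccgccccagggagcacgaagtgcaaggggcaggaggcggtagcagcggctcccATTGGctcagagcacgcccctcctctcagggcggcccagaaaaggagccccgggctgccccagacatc
Pex11a: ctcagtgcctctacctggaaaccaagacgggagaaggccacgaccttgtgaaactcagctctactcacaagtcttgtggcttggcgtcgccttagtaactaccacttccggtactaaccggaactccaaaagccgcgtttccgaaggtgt
Acot1, Acot3, Acot4, Acot5 and Ehhadh hold a CCAAT box in this stretch, Acot3 on both strands, and Acot3, Acot4 and Acot5 also a half-site, while the Acot2 and Pex11a stretches hold neither. Promoters of 300 bases (250 before to 50 after the start) were found for 56 of the 67 members. Of these, 24 held a CCAAT box, against 37.9% of 27025 mouse promoters, and 12 held the half-site, against 16.0%. Among the 18 members with a promoter that differed by the F test, 12 held a CCAAT box, Acot2 among them, and 5 the half-site. The direct repeat DR1, a pair of perfect half-sites with 1 base (any letter) between them, was in none of the 56 and in 0.0444% of all promoters, the E-box CACGTG in 3 (7.24% of all) and the cyclic AMP element TGACGTCA in 2 (1.88% of all), each counted on both strands. These matches describe the letters only.

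The thioesterases outside the cluster moved in both directions. Acot8, peroxisomal and of another fold, read 19154, 17175 and 13922 in ND, 10002, 6463 and 8989 in HFD16, 12175, 13197 and 6768 in HFD24, and 14819.5, 16728 and 15205 in PTFC. All diet-alone arrays lay below the ND and PTFC arrays, and it was lower in HFD16 than in ND (log2 -0.99 ± 0.26, limma adjusted p = 0.021), but not without ND 1, ND 2, HFD16 2 or HFD16 3 (highest limma adjusted p 0.0839). Acot12, the cytosolic enzyme of liver that hydrolyses acetyl-CoA, read 19266, 21524 and 18533 in ND, 13798, 11945 and 14303 in HFD16, 14659, 15063 and 10018 in HFD24, and 18351, 27643 and 26655 in PTFC, again with the diet-alone arrays lowest. It passed only in PTFC against HFD24, 1.75-fold higher (log2 0.80 ± 0.20, limma adjusted p = 0.0362). That call was lost without HFD16 3, any HFD24 array, PTFC 2 or PTFC 3 (log2 0.59 to 0.96, highest limma adjusted p 0.171). Acot11, known from brown fat, went the other way from the cluster. It read 851, 749 and 638 in ND, 1003, 1721 and 1135 in HFD16, 1266, 1096 and 1483 in HFD24, and 1401, 1162 and 1028 in PTFC, with every ND array below every other array. It was 1.78-fold higher in HFD16 and 1.76-fold higher in HFD24 than in ND (limma adjusted p = 0.0133 and 0.0126), the first not without HFD16 2 (0.0531) and the other not without ND 2 or HFD24 1 (highest 0.0518). Acot7 was lower in HFD16 than in ND (log2 -0.50, limma adjusted p = 0.038, up to 0.145 without ND 1, ND 2, HFD16 2, HFD16 3, PTFC 2 or PTFC 3). Acot13 passed no test.

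Of the 9 genes of peroxisomal beta-oxidation the F test called Ehhadh alone, while Ehhadh, Acox2 and Eci2 passed in HFD16 against ND. Ehhadh, the bifunctional enzyme that hydrates and dehydrogenates the shortened chains, read 83365, 99318 and 165767 in ND, 27695, 23048 and 33257 in HFD16, 53005, 89188 and 33114 in HFD24, and 109256, 173445 and 144290.0 in PTFC. The HFD16 arrays lay below all ND arrays, the second HFD24 array overlapped ND, and every PTFC array lay above every HFD24 array. It fell by 1.93 ± 0.32 in HFD16 against ND, to 26.3% of ND (limma adjusted p = 0.00307). It was not called in HFD24 against ND (log2 -0.92 ± 0.32, limma adjusted p = 0.064), and was 2.30-fold higher in PTFC than in HFD24 (limma adjusted p = 0.0458). The HFD16 fall passed without any single array, and the PTFC call was lost without ND 2, HFD16 3, HFD24 1, HFD24 3 or any PTFC array (log2 0.84 to 1.57, highest limma adjusted p 0.17). Acox2, the branched-chain oxidase that also shortens bile acid precursors, read 47378, 45684 and 33769 in ND, 55347, 58289 and 55687 in HFD16, 48304, 37999 and 41271 in HFD24, and 50292, 50542 and 48093 in PTFC. Its HFD16 arrays lay above all others, and it was 1.41-fold higher in HFD16 than in ND (limma adjusted p = 0.0293, up to 0.0826 without ND 2, ND 3 or any HFD16 array). Eci2, an isomerase for unsaturated chains, was 1.35-fold lower in HFD16 than in ND (limma adjusted p = 0.0303, up to 0.101 without any ND array, HFD16 2 or HFD16 3). Acaa1b, the brightest of the peroxisomal thiolase probes, ranged from 277964 to 431387 over the 12 arrays and passed no test. Its near copy Acaa1a and the isomerase Eci3 lay in the dimmest 25% of genes, where little can be measured.

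Of the 14 peroxins, Pex11a, which drives the division and multiplication of peroxisomes, had the smallest F-test p of all 67 genes. It read 210089, 174834 and 217856 in ND, 79044, 74431 and 79787 in HFD16, 137039, 130763 and 108656 in HFD24, and 181225, 200723 and 202259 in PTFC. Neither diet group overlapped any other group, and only ND and PTFC overlapped each other. It fell by 1.22 ± 0.10 in HFD16 against ND, to 42.9% of ND (limma adjusted p = 0.000141). It fell by 0.50 ± 0.10 in HFD24 against ND, to 70.9% (limma adjusted p = 0.00496), and was 1.39-fold higher in PTFC than in HFD24 (limma adjusted p = 0.0238), at 98.2% of ND. HFD24 was 1.65-fold above HFD16 (log2 0.73 ± 0.10, limma adjusted p = 0.0195). That last call was lost without ND 1, any HFD16 array, HFD24 1 or HFD24 2 (log2 0.69 to 0.79, highest limma adjusted p 0.0951). The PTFC call was lost without any HFD24 array, PTFC 2 or PTFC 3 (log2 0.40 to 0.51, highest limma adjusted p 0.114). Both falls passed in all 12 fits that left out an array.

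Pex13 and Pex14 form the docking complex through which matrix enzymes enter the peroxisome. Pex13 read 3600.2, 3462 and 3219.6 in ND, 2009, 2078 and 2196 in HFD16, 1952, 1815 and 1727 in HFD24, and 2604, 3134 and 2731 in PTFC. Its arrays formed 3 levels without overlap, the diet alone lowest, PTFC between and ND highest. The log2 differences were -0.69 ± 0.15 in HFD16 against ND, -0.90 ± 0.15 in HFD24 against ND and 0.55 ± 0.15 in PTFC against HFD24 (limma adjusted p = 0.00943, 0.00195 and 0.0488). The last of these was lost in 10 of the 12 fits that left out an array, passing only without ND 3 or HFD16 2 (log2 0.47 to 0.65, highest limma adjusted p 0.163), and the other two in none. PTFC against ND was -0.35 (95% interval -0.68 to -0.03) and did not pass (limma adjusted p = 0.244). Pex14 read 23791, 24211 and 17669 in ND, 14178, 13354 and 13800.2 in HFD16, 16488, 15266 and 14459 in HFD24, and 17159, 22743 and 24167 in PTFC. The HFD16 arrays were its lowest, and it passed in HFD16 against ND alone (log2 -0.65 ± 0.16, limma adjusted p = 0.017). Pex16, needed to insert peroxisomal membrane proteins, also passed there (log2 -0.77 ± 0.21, limma adjusted p = 0.025). Both calls were lost without ND 1, ND 2, HFD16 2 or HFD16 3 (highest limma adjusted p 0.0738 for Pex14 and 0.108 for Pex16). None of the other 10 peroxins passed in any comparison, among them the import receptors Pex5 and Pex7 and the ATPase Pex6.

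In the mitochondrion, most of the chain-shortening enzymes showed small differences. Hadha, the alpha subunit of the trifunctional protein for long chains, read 5542, 4367 and 2272 in ND, 1933, 1732 and 1947 in HFD16, 1237, 2209.8 and 2086 in HFD24, and 4025, 3625 and 4943 in PTFC. The third ND array lay close above the diet arrays and well below the PTFC arrays. Hadha was 2.01-fold lower in HFD16 and 2.12-fold lower in HFD24 than in ND (limma adjusted p = 0.0268 and 0.0187) and 2.20-fold higher in PTFC than in HFD24 (limma adjusted p = 0.0368). Each Hadha call depended on single arrays. HFD16 against ND was lost without ND 1, ND 2, HFD16 2 or HFD16 3 (highest limma adjusted p 0.122). HFD24 against ND was lost without ND 1, ND 2 or HFD24 1 (highest 0.0936), and PTFC against HFD24 without HFD16 3 or any HFD24 or PTFC array (highest 0.175). Acad9, a dehydrogenase also needed to assemble respiratory complex I, read 1258, 1215 and 796 in ND, 549, 481 and 469 in HFD16, 312, 629 and 714 in HFD24, and 1129, 955 and 1138 in PTFC. All diet-alone arrays of Acad9 lay below the ND and PTFC arrays. The differences were -0.99 ± 0.21, -0.96 ± 0.21 and 0.80 ± 0.21 in HFD16 against ND, HFD24 against ND and PTFC against HFD24 (limma adjusted p = 0.0084, 0.00783 and 0.0422). Both Acad9 falls passed in all 12 fits that left out an array. The PTFC call was lost without ND 1, ND 2, HFD16 3, HFD24 1, HFD24 2 or any PTFC array (log2 0.56 to 0.95, highest limma adjusted p 0.175). Acadvl, the dehydrogenase for very long chains, read 149973, 143305 and 126489 in ND, 106054, 108610.0 and 106577 in HFD16, 105900.0, 92114 and 101431 in HFD24, and 118105, 143952 and 144965 in PTFC. The 1.28-fold lower level in HFD24 than in ND passed (log2 -0.35 ± 0.10, limma adjusted p = 0.0305), but not without ND 1, ND 2, HFD24 1 or HFD24 2 (highest limma adjusted p 0.127).

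The remaining 16 mitochondrial genes passed in none of the 5 comparisons, although Decr1, a reductase for unsaturated chains, was called by the F test. As log2 differences, Acaa2, the last thiolase, had -0.28 ± 0.17 in HFD24 against ND and -0.17 ± 0.17 in PTFC against HFD24. In the same order the medium- and long-chain dehydrogenases Acadm had -0.19 and 0.32 and Acadl -0.21 and 0.27, and the dehydrogenase Hadh 0.03 and 0.11. Over the 45 members that the F test did not call, in all roles, 43 lay within 0.5 of 0 in HFD24 against ND and 43 in PTFC against HFD24, with a median SE of 0.18. The widest of these were Pex19 (-0.50) and the cytosolic acetoacetyl-CoA thiolase Acat3 (0.60) in HFD24 against ND, and Acox3 (-0.49) and Pex19 (0.60) in PTFC against HFD24. Of these 45, Acadvl alone passed in HFD24 against ND and none in PTFC against HFD24. A difference that did not pass is not shown to be absent. Acaa2 and the peroxisomal Acaa1b lay at percentile 99.9 of signal. Their mean log2 values were 18.3 and 18.4, against 18.6 for the hepatocyte marker Alb. Whether probes this bright understate differences was not tested.

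Both muscle- and brain-type carnitine palmitoyltransferases were measurable in liver, beside the inner-membrane enzyme Cpt2. Cpt1b, the muscle form, read 2869, 3354 and 2998 in ND, 845, 903 and 764 in HFD16, 1600.1, 1689 and 1421 in HFD24, and 1857, 4378 and 3991 in PTFC. The HFD16 arrays were lowest and the HFD24 arrays next, each without overlap, and the first PTFC array lay far below the other PTFC arrays. Cpt1b was 3.51-fold lower in HFD16 and 1.96-fold lower in HFD24 than in ND (limma adjusted p = 0.00178 and 0.023), and its 1.92-fold difference in PTFC against HFD24 just missed (limma adjusted p = 0.0524). The HFD24 call was lost without ND 1, ND 2 or HFD24 3 (highest limma adjusted p 0.0788). The other Cpt1b probe gave -1.76, -0.93 and 0.62 in these comparisons on the log2 scale. HFD16 3 carried muscle and fat transcripts, with 2948 for skeletal actin Acta1 against 28.5 to 59.1 on the other 11 arrays and 2863 for Adipoq against 106 to 363. Its Cpt1b was the lowest of all arrays, and without it the difference was -1.77 (limma adjusted p = 0.0103, range over the alternatives 0.000299 to 0.0467). Cpt1c, the brain form, was 1.64-fold lower in HFD16 than in ND (limma adjusted p = 0.0313, up to 0.127 without ND 1, ND 2 or any HFD16 array). Cpt2 read 126107, 129901 and 157020.0 in ND, 91822, 114505 and 88459.5 in HFD16, 102194, 85797 and 94916 in HFD24, and 125800.0, 149738 and 136602 in PTFC. It was lower on every HFD24 array than on any ND or PTFC array, but passed in neither comparison (log2 -0.37 and 0.35, limma adjusted p = 0.0631 and 0.117).

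**Figure D3:**
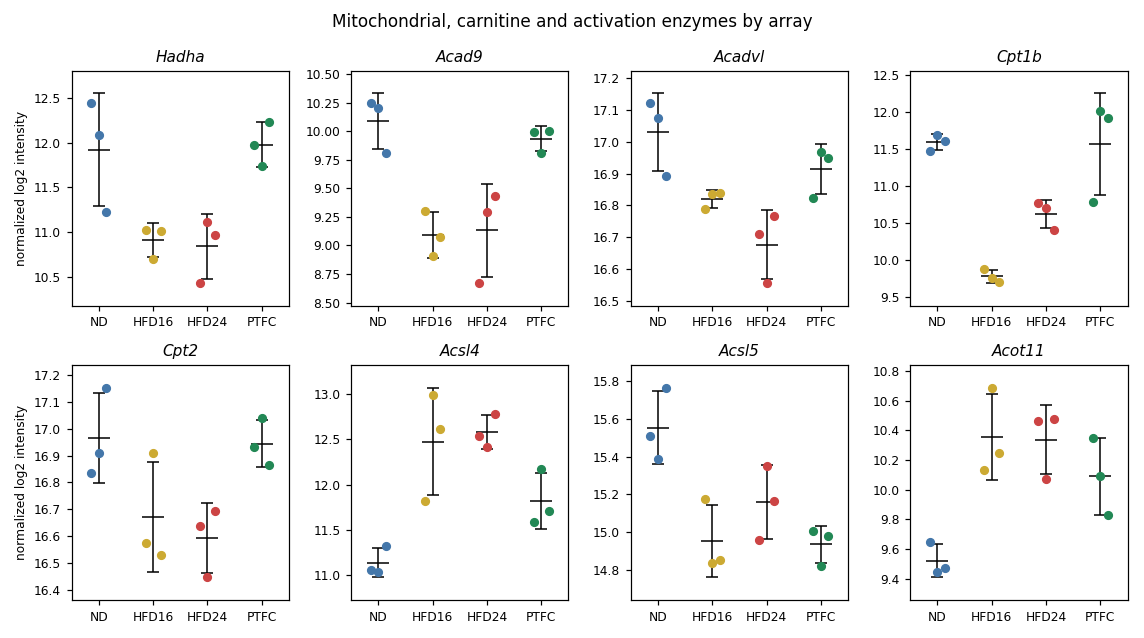
Normalized log2 intensity (vertical axis, its own range in each panel) of 3 mitochondrial enzymes, 2 carnitine palmitoyltransferases, 2 synthetases and Acot11 on each array, by group. Points are arrays and bars are the mean ± SD of 3 arrays; Acsl4 and Acot11 lie lowest in ND, while Hadha, Acad9 and Cpt1b are lower in HFD16 and HFD24 than in ND.

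The synthetases moved in both directions. Acsl4, which prefers arachidonate, read 2171, 2152 and 2438 in ND, 3445, 8419 and 6078 in HFD16, 5612, 5318 and 7218 in HFD24, and 3123, 4881 and 3436 in PTFC. Every ND array lay below every other array, and the PTFC arrays lay below the HFD24 arrays. It was 2.52-fold higher in HFD16 and 2.71-fold higher in HFD24 than in ND (limma adjusted p = 0.0058 and 0.00286), in all 12 fits that left out an array. Its difference of -0.76 ± 0.26 in PTFC against HFD24 did not pass (limma adjusted p = 0.0965). The summed macrophage markers given above were higher in the same groups, and their part in this was not tested. Acsl5, of the mitochondrial outer membrane and endoplasmic reticulum, read 47710.4, 43756 and 56988 in ND, 36606, 28635 and 28959.5 in HFD16, 30843, 40874 and 35742 in HFD24, and 32803, 30708 and 34096 in PTFC. All other arrays lay below the ND arrays, and it passed in HFD16 against ND (log2 -0.60 ± 0.15, limma adjusted p = 0.0179, up to 0.072 without ND 1, HFD16 2 or HFD16 3). In PTFC against ND it came closest of all members to the threshold (log2 -0.62 ± 0.15, limma adjusted p = 0.0517). Acsm5, a medium-chain synthetase of the matrix, read 13717, 13798 and 14444 in ND, 24564, 21879.6 and 27632 in HFD16, 21173, 18390.1 and 19914 in HFD24, and 22868, 14289 and 22656 in PTFC. Every diet-alone array lay above ND, and it was 1.78-fold higher in HFD16 than in ND (limma adjusted p = 0.0117, but 0.0546 without HFD16 3). Its neighbour in function Acsm1 passed no test.

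The acetoacetyl-CoA thiolases passed no test, and for Acat1, the mitochondrial enzyme of ketone body metabolism, this depended on the probe. Its brighter probe gave log2 differences of 0.01 in HFD24 against ND, -0.01 in PTFC against HFD24 and -0.26 in HFD16 against ND. Its dimmer probe gave -0.77 ± 0.21, 0.91 ± 0.21 and -1.01 ± 0.21 (limma unadjusted p = 0.00245, 0.000726 and 0.000296). Acat3 gave 0.60 in HFD24 and 0.63 in HFD16 against ND (limma adjusted p = 0.113 and 0.0923).

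HFD16 against ND and PTFC against HFD24 share no array in their group means, so their differences can be set against each other. Their calls are not separate, because the arrays were normalized together and the spread of a gene was estimated from all groups. A gene with a small spread is more easily called in both comparisons, and how much of the overlap of calls comes from this was not tested. Of the 18 members lower in HFD16 than in ND, 8 were higher in PTFC than in HFD24, which is 44.4% of the first list and 88.9% of the 9 in the second: Acot1, Acot2, Acot4, Ehhadh, Hadha, Acad9, Pex11a and Pex13. Over all genes, 259 of the 1548 lower in HFD16 were among the 564 higher in PTFC, which is 16.7% and 45.9% of those lists, and whether the members differ from this was not tested. Across the 67 genes, which are not independent replicates, the differences ran against each other (Pearson r -0.81, Spearman rho -0.62), as they did across all 19084 genes (-0.62 and -0.58). HFD24 against ND and PTFC against HFD24 share the HFD24 arrays, so their opposite signs are not read as a result. For the 10 members lower in HFD24 than in ND, the percentage of the ND level ran from 29.1% for Acot3 to 78.3% for Acadvl in HFD24, and in PTFC from 76.4% for Acot1 to 104% for Hadha. These 10 were picked by their ND and HFD24 arrays, so a PTFC level nearer to ND is likewise not read as a result.

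**Figure D4:**
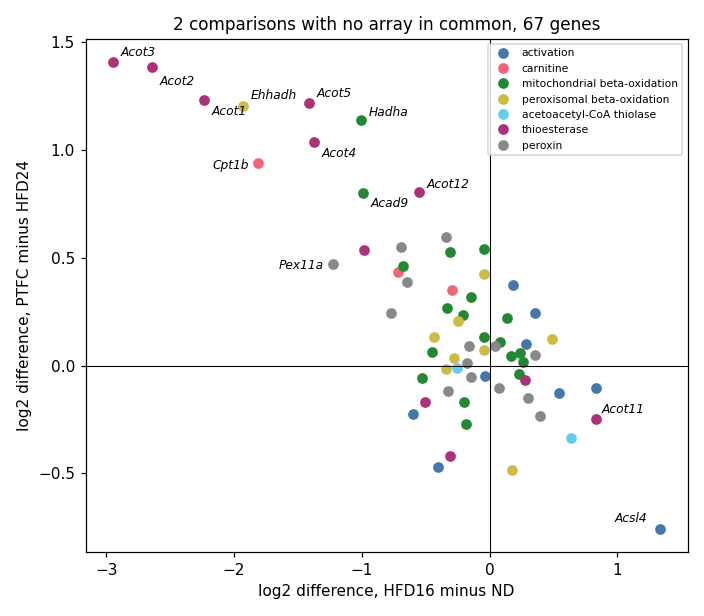
Log2 difference of each of the 67 genes in HFD16 against ND (horizontal axis) and in PTFC against HFD24 (vertical axis), 1 point per gene, coloured by role. Acot3, Acot2, Acot1, Ehhadh and Cpt1b lie at the upper left and Acsl4 at the lower right, while most genes lie near 0 on both axes.

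The calls of PTFC against HFD24 rested on few arrays. Without HFD24 1, PTFC 2 or PTFC 3 no member was higher, without HFD24 3 it was 1, without PTFC 1 or HFD16 3 it was 3, and without ND 2 or HFD24 2 it was 5. The count over all genes fell from 564 to between 3 and 431 in these fits. Median centring gave 2 higher and 2 lower members, centring on hepatocyte markers 5 and 1, and the scale as deposited 14 and 0. Of all genes called in these settings, 37.3%, 16.0% and 90.5% were higher, against 49.3% in the main fit. None of the 9 calls held in all 12 fits that left out 1 array, compared with 6 of 12 calls in HFD24 against ND and 10 of 22 in HFD16 against ND. The 6 were Acsl4, Acot1, Acot2, Acad9, Pex13 and Pex11a.

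In HFD16 against ND the 18 lower members were 10 without ND 1, 11 without ND 2, 9 without HFD16 2 and 10 without HFD16 3, and the 4 higher members were 2 without HFD16 3. Over all genes the 1548 lower became 475 to 2225 in the 12 fits that left out an array. The 1914 higher became 865 to 2286. Median centring gave 4 higher and 10 lower, centring on hepatocyte markers 7 and 12, and the deposited scale 3 and 21. Of all genes these settings called 3946, 3312 and 3484 in either direction, against 3462 in the main fit. Of those called 57.6%, 80.2% and 34.4% were higher, against 55.3%. With the scaling step of each array as a covariate, 5 were lower and 0 higher, and in HFD24 against ND 3 and 0, Acot1, Pex13 and Cpt2, the last not called in the main fit. Over all genes that fit called 219 in HFD16 against ND and 1086 in HFD24 against ND, in either direction. The step was higher on every ND array than on any other array, so this fit cannot fully tell the step and the diet apart. In HFD24 against ND 6 were lower without ND 2, and 1 was higher without ND 2 or HFD24 1. Over all genes 591 to 2481 were lower and 1147 to 2458 higher there in the 12 fits that left out an array. HFD16 mice were younger than ND mice, so the diet and the age cannot be told apart there.

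Genes that serve the same pathway but do not match the symbol rule were taken from a list of 41, of which 34 were measured. In HFD16 against ND 15 were lower and 1, the peroxisomal cofactor carrier Slc25a17, was higher, and in HFD24 against ND 9 were lower and none higher. Over all genes 8.11% were lower and 10.0% higher in the former comparison, and 8.28% and 9.97% in the latter. Pdk4, the kinase that shuts off pyruvate oxidation, read 8274, 13284 and 26862 in ND, 1079.7, 583 and 1179 in HFD16, 2151, 4002 and 2544 in HFD24, and 7137, 11276 and 9372 in PTFC. The diet-alone arrays of Pdk4 all lay below the others, 15.0-fold lower in HFD16 and 5.01-fold lower in HFD24 than in ND (limma adjusted p = 0.000383 and 0.00224), with PTFC 3.10-fold above HFD24 (limma adjusted p = 0.0359). Lower in both diet groups were also the coactivator Ppargc1a (log2 -1.80 in HFD16 and -1.40 in HFD24), the carnitine acetyltransferase Crat (-1.66 and -1.30) and the alpha-oxidation lyase Hacl1 (-1.31 and -1.19). So were the carnitine importer Slc22a5 (-1.64 and -1.12), the peroxisomal importer Abcd3 (-0.80 and -0.57), malonyl-CoA decarboxylase Mlycd (-0.85 and -0.49) and Angptl4, an inhibitor of lipoprotein lipase (-1.05 and -0.52). Cpt1a, the liver form of the carnitine enzyme, was lower in HFD16 (-0.90 ± 0.18, limma adjusted p = 0.00745).

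In PTFC against HFD24 2 of the 34 were higher, Pdk4 and Angptl4 (1.52-fold, limma adjusted p = 0.0409), and 1 was lower, where 2.96% of all genes were higher and 3.04% lower. That gene was Nudt7, which splits coenzyme A in peroxisomes, at 80437, 59977 and 75067 in ND, 59686, 60554 and 54158 in HFD16, 36846, 39045 and 43198 in HFD24, and 25103, 25301 and 28202 in PTFC. Its groups stepped down from HFD16 to HFD24 to PTFC without overlap, 1.70-fold lower in HFD24 than in ND and 1.64-fold lower in PTFC than in HFD24 (limma adjusted p = 0.00249 and 0.0185). With Ppargc1a it was 1 of 2 genes of the list still lower in PTFC than in ND (limma adjusted p = 0.000262 and 0.0245). How the calls of this list fared in the fits that left out an array is not given here. In those fits the count of all genes higher in PTFC than in HFD24 ranged from 3 to 1078.

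**Figure D5:**
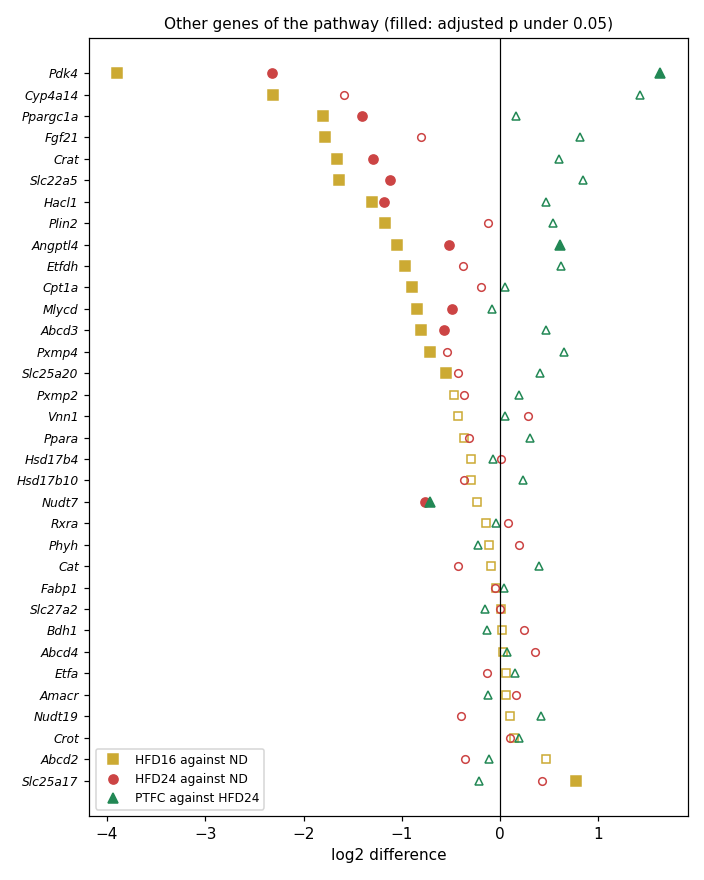
Log2 difference (horizontal axis) of the 34 measured pathway genes outside the symbol rule, 1 row per gene, in HFD16 against ND (squares), HFD24 against ND (circles) and PTFC against HFD24 (triangles). Filled symbols passed the limma test at an adjusted p under 0.05; most filled squares and circles lie left of 0, and Pdk4 and Angptl4 are the filled triangles to the right.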

How the data were processed

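The members, the gene lists and the tests were chosen with earlier results of these data known. Per the labels, total RNA was amplified, labelled with Cy5 and hybridised to single-colour arrays; the deposited values are linear intensity, 26423 probes per array, and the labels do not state how the authors corrected background or scaled the arrays. Values below 0 (291 of 317076) were set to 0, and log2(intensity + 1), which understates changes of dim genes, was quantile normalized over all probes. The brightest probe stood for each of 19084 genes, of 21876 probes with a symbol (4547 had none here). The limma package 3.58.1 (R 4.3.3) estimated the 4 group means from 12 arrays together (eBayes with trend, no block), with two-sided tests, with Benjamini-Hochberg adjustment over all genes and a threshold of 0.05. The script was tested on simulated data. Replicate numbers did not pair the arrays (median correlation of deviations -0.05 over 18 same-number pairs). Every member past the test in HFD24 against ND or PTFC against HFD24 (up to 12 each way) or in the other comparisons (up to 6) is named, with the members of each role of smallest F-test p and highest intensity. Acot7, Acot8, Eci2, Pex14 and Pex16 in HFD16 against ND, and the further genes named without passing a test, were chosen after their values were seen. Alternatives changed the scaling, pseudocount, dim-gene filter, probe choice, prior, block, covariate and arrays used. The number of arrays, 3 per group, limits the precision.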

Additional observations from a re-analysis of the deposited data

Results flagged for a closer look

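Pex11a was the only member whose diet effect differed by a test between 16 and 24 weeks: HFD24 minus HFD16 was 0.73 ± 0.10 on the log2 scale (SE, n = 3 arrays per group, limma adjusted p = 0.0195), with the 3 HFD24 arrays all above the 3 HFD16 arrays. Both effects are measured from the same ND arrays, and HFD16 mice were younger than HFD24 mice, so time on the diet and age cannot be told apart. Over the alternatives the difference lay between 0.63 and 0.79 and its limma adjusted p between 0.0139 and 0.405.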

How the results depend on the processing

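Of 44 calls of single members in the 5 comparisons, 6 passed under all 22 alternatives: Acot1 and Pex13 in HFD24 against ND, and Acot1, Acot2, Cpt1b and Pex11a in HFD16 against ND. No call changed sign in any of them. Of the 44, 24 passed with median centring, 42 on the scale as deposited, 33 centred on hepatocyte markers, 44 with a pseudocount of 32, 43 without the dimmest 25% of genes, 43 with the mean of all probes, 38 without the trend, 36 with only the 2 groups compared and 16 with the scaling step as a covariate.

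Members higher in PTFC against HFD24 numbered 2 with median centring, 14 on the deposited scale and 5 centred on hepatocyte markers, against 9, and members lower there 2 with median centring and 1 when centred on hepatocyte markers, with the step or with only the 2 groups, against 0. In HFD16 against ND, 7 were higher centred on hepatocyte markers and 0 with the step, against 4, and 10 were lower with median centring and 5 with the step, against 18. In HFD24 against ND the step gave 0 higher and 3 lower, against 2 and 10. The single call between HFD24 and HFD16 became 0 with median centring, on the deposited scale, without the dimmest genes, without the trend, with the block or with only the 2 groups. In PTFC against ND, 1 was lower centred on hepatocyte markers or without the dimmest genes. The cause was not tested. Every ND array had a higher step than any other array, so the fit with the step cannot fully tell the step and the diet apart.

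Leaving out arrays one at a time gave 1 to 3 higher and 6 to 13 lower members in HFD24 against ND, 0 to 13 and 0 to 1 in PTFC against HFD24, 2 to 4 and 9 to 19 in HFD16 against ND, 0 to 1 higher between HFD24 and HFD16, 0 to 1 lower in PTFC against ND, and 13 to 25 members by the F test. Over all genes the first 3 comparisons gave 1147 to 2458 and 591 to 2481, 3 to 1078 and 8 to 915, and 865 to 2286 and 475 to 2225. The last 3 ranges were 1 to 8, 29 to 311 and 2222 to 5185 genes. The replicate block, fitted although the numbers only name the arrays (2 of 12 correlated best with their own number), gave 0 higher members in PTFC against HFD24 and kept 30 of the 44 calls.

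Scaling shifts the median of all genes. On the deposited scale it was -0.23, 0.24 and -0.22 in HFD24 against ND, PTFC against HFD24 and HFD16 against ND, and median centring and hepatocyte centring moved it to -0.13 in PTFC against HFD24, while hepatocyte centring moved it to 0.13 in HFD16 against ND and -0.11 in HFD24 against HFD16. The share of called genes that were higher, 54.6%, 49.3% and 55.3% in these comparisons, became 41.3%, 90.5% and 34.4% on the deposited scale, 67.0%, 16.0% and 80.2% centred on hepatocyte markers, and 37.3% in PTFC against HFD24 with median centring. In PTFC against ND it was 44.7%, and 68.7%, 26.0% and 32.8% on these 3 scales. Over all genes 3483, 1145 and 3462 were called in the first 3 comparisons, against 1086 and 219 with the step in HFD24 and HFD16 against ND and, in PTFC against HFD24, 337 with the block and 1745 with only the 2 groups. In PTFC against ND 445 were called, 229 with median centring and 54 with the step, and between HFD24 and HFD16 7, with 0 to 11 over the alternatives. Dim members (Acaa1a, Eci3, Acsl6, Pex5l and Acot6) have little signal over background, so their differences are the least certain.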
